A study of Rattus norvegicus with 8 samples.

Results

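Core genes of the circadian clock were examined in liver RNA of outbred male rats of the Sprague-Dawley strain. The set holds 10 genes, Nr1d1, Nr1d2, Bmal1, Clock, Npas2, Cry1, Cry2, Per2, Bhlhe40 and Bhlhe41, represented by 17 of the 31099 probe sets on the array, where 14217 genes have a probe set with a single symbol. A probe set is a small group of probes directed at a transcript, and each of the 10 genes had at least 1. The genes were chosen by name, but with earlier results of the same control against hydrogen water comparison known, so their differences are given as a description with no test of their own. Control rats drank sterilized distilled water for 4 weeks, and the other group drank hydrogen water, in which 0.7 mM molecular hydrogen was dissolved. The rats were 4 weeks old when they were acclimatized and 8 weeks old when the livers were taken under diethyl ether. They ate and drank freely and were lit for 12 h, from hour 7 to hour 19 of the day. The hour at which each liver was taken is not given in the sources used here. The study kept 8 animals per group and 4 arrays per group were analysed here. How arrays correspond to animals, and whether any RNA was pooled, is not given in the sources used here, so errors cover the spread between arrays.

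The clock of a liver cell is a feedback loop of transcription. BMAL1 pairs with CLOCK, or with its relative NPAS2, and binds E-boxes to switch on the Per, Cry, Nr1d and Bhlhe genes. PER and CRY proteins then return to block the activator pair, while REV-ERB alpha and beta, the products of Nr1d1 and Nr1d2, repress Bmal1 and other genes through elements called ROREs. DEC1 and DEC2, the products of Bhlhe40 and Bhlhe41, compete at E-boxes. Most of these transcripts go through a daily cycle in rodent liver, and the Nr1d and Per genes do so with a large amplitude.

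Promoter windows from RefSeq (rat assembly GRCr8) run from 250 bases before to 50 bases after an annotated start. They were found for 9 of the 10 genes, all but Cry1, in 11 windows. Each window was searched on both strands for the E-box CACGTG, the E-prime box CACGTT, the RORE core TAGGTCA or TGGGTCA, its variant TAGGTTA and the D-box TTANGTAA. The variant was added after the Bmal1 window had been seen. The 4 windows below are among those that held a match, and capitals mark the matches. The other windows, with or without a match, are not shown.
Nr1d1, chr10:84229405-84229704, minus strand: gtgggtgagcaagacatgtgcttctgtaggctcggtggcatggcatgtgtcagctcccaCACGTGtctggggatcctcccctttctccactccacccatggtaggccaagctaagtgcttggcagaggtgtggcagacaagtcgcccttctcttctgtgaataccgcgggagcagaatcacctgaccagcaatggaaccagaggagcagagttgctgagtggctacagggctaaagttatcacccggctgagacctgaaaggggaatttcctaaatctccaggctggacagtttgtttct
Bmal1, chr1:176766078-176766377, plus strand: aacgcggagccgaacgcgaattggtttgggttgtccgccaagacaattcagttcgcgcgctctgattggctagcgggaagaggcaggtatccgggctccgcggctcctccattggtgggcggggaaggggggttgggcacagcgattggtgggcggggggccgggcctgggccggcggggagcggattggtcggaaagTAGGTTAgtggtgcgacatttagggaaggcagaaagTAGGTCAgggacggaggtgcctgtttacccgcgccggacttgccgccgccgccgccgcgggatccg
Per2, chr9:99496944-99497243, minus strand: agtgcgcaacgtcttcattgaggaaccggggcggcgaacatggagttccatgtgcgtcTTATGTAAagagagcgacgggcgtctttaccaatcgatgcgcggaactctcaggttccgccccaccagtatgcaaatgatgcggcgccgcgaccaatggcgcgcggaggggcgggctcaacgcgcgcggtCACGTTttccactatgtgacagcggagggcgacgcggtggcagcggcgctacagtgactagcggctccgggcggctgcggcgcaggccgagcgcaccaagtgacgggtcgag
Bhlhe40, chr4:143174200-143174499, plus strand: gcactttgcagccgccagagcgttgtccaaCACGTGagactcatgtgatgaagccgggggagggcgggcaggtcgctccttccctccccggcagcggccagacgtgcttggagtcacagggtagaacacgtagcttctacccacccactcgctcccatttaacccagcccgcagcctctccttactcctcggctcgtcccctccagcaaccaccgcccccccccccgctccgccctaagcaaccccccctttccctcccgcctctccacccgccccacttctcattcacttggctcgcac

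The Nr1d1 window shown, at the second of its annotated starts, held an E-box 191 bases before the start, and its other window held an E-prime box 174 bases before. Bhlhe40 had an E-box at 220 bases before its start, and Bhlhe41 one at 48 bases. Per2 carried an E-prime box at 62 bases and a D-box at 192 bases before its start, and Cry2 an E-prime box at 212 bases. The RORE core stood 16 bases before the Bmal1 start and the variant 52 bases before it. Nr1d2, Clock and Npas2 held none of these letters in their windows. Over 33469 RefSeq windows of 300 bases, the E-box was found in 6.42%, the E-prime box in 4.83%, the RORE core in 6.6%, the variant in 1.61% and the D-box in 2.24%. A match of letters describes the window and is not evidence of binding.

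The array signals were made comparable by quantile normalization and are given as log2(signal + 2.05), where 2.05 is 10% of the median of all deposited values. Probe sets were tested where their mean log2 signal reached the median of all, which 14 of the 17 clock probe sets, for 9 of the 10 genes, met. The 3 others are a probe set of Clock, one of Per2 and the only one of Bhlhe41. The median deposited signal of an array lay between 17.2 and 26.8, and control arrays were the brighter group. Their 2% trimmed mean was 116 ± 18.8, and that of the hydrogen water arrays 92.0 ± 10.4 (SD, n = 4; p = 0.114 by an exact permutation test, two-sided). For Gapdh, the log2 of 3′ over 5′ signal, a sign of RNA quality, was 0.22 ± 0.10 for control and 0.38 ± 0.08 for hydrogen water (SD, n = 4; p = 0.0571 by the same exact test, which can reach 0.0286 at the lowest). For Actb the same log2 ratio was 1.60 ± 0.03 for control and 1.64 ± 0.05 for hydrogen water (SD, n = 4, p = 0.343 by the same exact test). Of 10 hepatocyte markers 9 were measured, all above the median signal on all arrays. Of 7 marker lists, the summed signal of 1, that of 6 stellate cell genes, did not overlap between groups. It was 338 to 373 in controls and 298 to 335 with hydrogen water. Of these 6 genes 4 were above the median on all arrays. Of the 5 tested probe sets of the stellate list, 0 passed an adjusted p of 0.05 in limma. The part of these measures in the results was not tested, except where brightness or the Gapdh ratio is named as a covariate.

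Among the clock genes, Nr1d1 was 3.97-fold higher with hydrogen water (1.99 ± 0.24 on the log2 scale, SE, n = 4 each) and Bhlhe40 was 2.56-fold lower (−1.36 ± 0.24). The 3 probe sets of Nr1d2 had higher means by 0.59 to 0.74, and the differences of Bmal1 and of the 3 tested probe sets of Clock lay between −0.12 and 0.04. Cry1, Cry2 and Per2 had lower means with hydrogen water and groups that overlapped. In whole liver, fewer cells of a type and less RNA per cell cannot be told apart. Of the 14 tested probe sets, 2 were past an adjusted p of 0.05 in limma, 1 higher (Nr1d1) and 1 lower (Bhlhe40). Over all 15521 probe sets tested, 127 were called at that threshold (0.818%), 0.445% higher and 0.374% lower. The groups did not overlap at 5 of the 14, 4 higher and 1 lower, against 7.48% of all tested probe sets, 3.85% higher and 3.63% lower. Of the 4 higher, 3 were the probe sets of Nr1d2, which read the same gene on the same arrays. Since the genes were chosen from results that include this contrast, nothing is read from these shares. The median difference was −0.11 on the log2 scale over the 14 and −0.00074 over all tested probe sets.

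**Figure D1:**
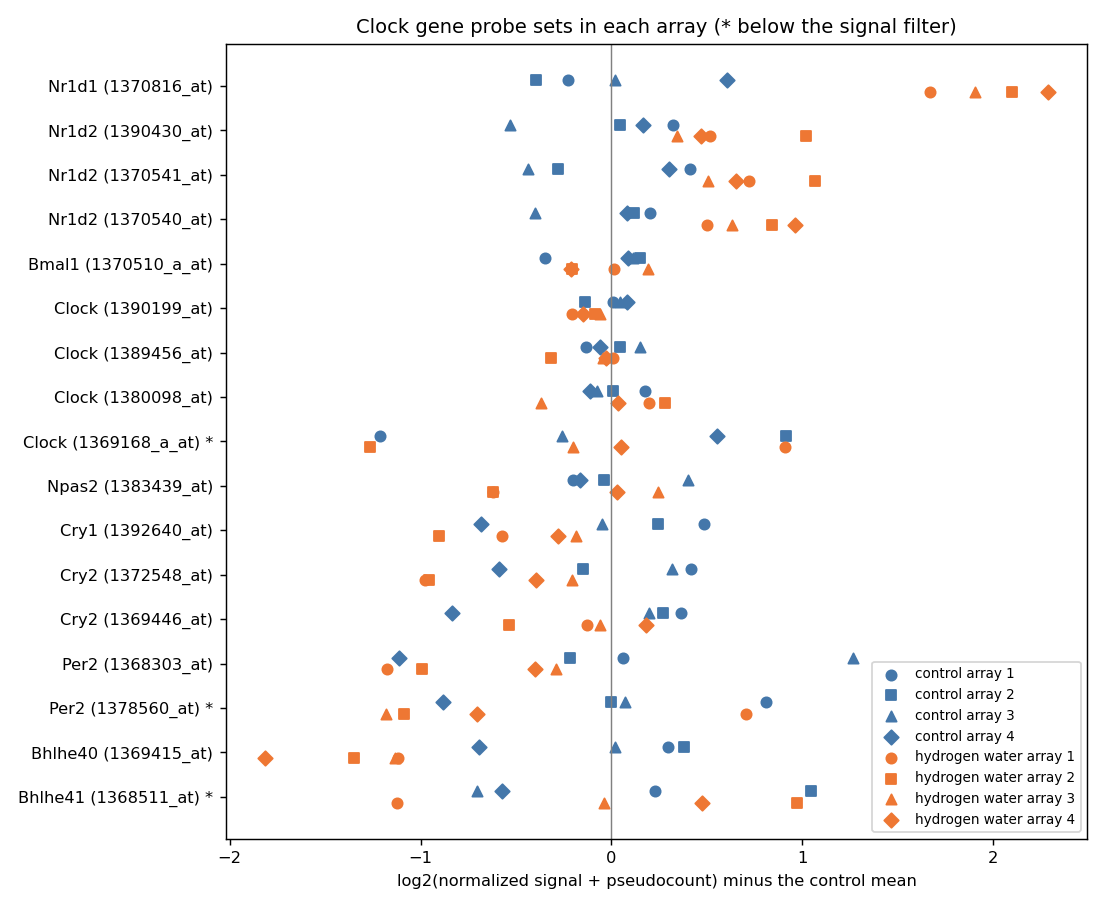
Each point is 1 array (blue for control, orange for hydrogen water, with the marker shape giving the array number), and the horizontal axis is its log2(normalized signal + pseudocount) minus the control mean of that probe set. The hydrogen water arrays lie to the right of all control arrays at Nr1d1 and the 3 probe sets of Nr1d2 and to the left of them at Bhlhe40; probe sets with an asterisk were below the signal filter.

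Nr1d1 encodes REV-ERB alpha, a heme-binding nuclear receptor that represses Bmal1. Its log2 signal in control arrays 1 to 4 was 3.82, 3.65, 4.06 and 4.65, and in hydrogen water arrays 1 to 4 it was 5.71, 6.14, 5.95 and 6.33. The lowest hydrogen water array thus stood above the highest control array, and all 4 lay above the control mean by more than the control range of 1.00. The difference was 1.99 ± 0.24 (SE), a 3.97-fold change. On the linear normalized scale the control signals were 12.0, 10.5, 14.6 and 23.0, and 3 of the 4 lay below the median of all deposited values, 20.5. No detection calls were used here, so whether these low control signals exceed background is not known, and the fold depends on the pseudocount. The difference was 1.57 with a pseudocount of 50% of the median and 2.14 with none. It was also 2.14 with array brightness as a covariate, where Nr1d1 no longer passed the threshold, and it ran from 1.86 to 2.19 when 1 array was left out.

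Nr1d2 encodes REV-ERB beta, the close relative of REV-ERB alpha that shares its repressor role, and it was measured by 3 probe sets. The brightest of them, 1390430_at, read 7.68, 7.40, 6.83 and 7.52 in controls and 7.87, 8.38, 7.70 and 7.83 with hydrogen water. The second, 1370541_at, read 7.00, 6.31, 6.16 and 6.90 in controls and 7.32, 7.66, 7.10 and 7.24 with hydrogen water. The dimmest, 1370540_at, read 4.82, 4.74, 4.22 and 4.70 in controls and 5.12, 5.46, 5.25 and 5.58 with hydrogen water. Each of the 3 separated the groups, with control array 3 the lowest control in each. The differences were 0.59 ± 0.20, 0.74 ± 0.20 and 0.73 ± 0.20 (SE) in that order, or 1.50-fold, 1.67-fold and 1.66-fold. None of the 3 passed the threshold over all probe sets in the quantile-normalized arrays, in any of the 14 other settings where it was tested (13 for 1370540_at) or in 8 fits without an array, and their differences were positive in all of these.

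In each hydrogen water array, Nr1d1 stood farther above its control mean than the brightest Nr1d2 probe set stood above its own. The log2 signal of Nr1d1 minus that of the brightest Nr1d2 probe set, set to 0 at the control mean, was 1.15, 1.08, 1.56 and 1.82 in hydrogen water arrays 1 to 4, against −0.55, −0.44, 0.55 and 0.44 in controls. The groups did not overlap in this difference of 2 genes, which was not tested because both were chosen with the contrast known. The Nr1d2 probe set used had the smallest difference of the 3, 0.59, and the others were not set against Nr1d1. The difference of Nr1d1 that enters here depends on the pseudocount, as given above.

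Bhlhe40 encodes DEC1, a helix-loop-helix repressor that binds E-boxes and also responds to hypoxia and other signals. Its log2 signal was 7.63, 7.71, 7.35 and 6.64 in controls and 6.21, 5.98, 6.20 and 5.52 with hydrogen water. No array crossed between groups, although control array 4 lay closer to hydrogen water array 1 than to any other control. The difference was −1.36 ± 0.24 (SE), a 2.56-fold change, and it ran from −1.25 to −1.71 over the other settings tried. The threshold was missed without control array 1 (−1.26) or 2 (−1.225), and without hydrogen water array 1 (−1.44), 2 (−1.36), 3 (−1.43) or 4 (−1.20). It was also missed where the prior had no trend, and with brightness (−1.48) or the Gapdh ratio (−1.31) as a covariate.

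Its relative Bhlhe41, which encodes DEC2, had a single probe set below the filter. The log2 signals were 2.74, 3.55, 1.80 and 1.93 in controls and 1.38, 3.48, 2.47 and 2.98 with hydrogen water. On the linear normalized scale all 8 signals were at most 9.68, under the median of all values, and the groups overlapped. Whether these signals exceed background is not known.

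Bmal1, the activator on which the loop depends, was measured by a single probe set. Its log2 signal was 6.86, 7.36, 7.33 and 7.30 in controls and 7.23, 7.01, 7.41 and 7.00 with hydrogen water. The highest array of all was hydrogen water array 3 and the lowest control array 1, so that the groups overlapped. The difference was −0.05 ± 0.14 (SE), and it turned to 0.0009 without hydrogen water array 4.

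Clock, the partner of BMAL1 with histone acetyltransferase activity, had 4 probe sets, of which 3 passed the filter. The brightest, 1390199_at, read 8.30, 8.15, 8.34 and 8.37 in controls and 8.09, 8.21, 8.23 and 8.14 with hydrogen water. The next, 1389456_at, read 7.77, 7.94, 8.05 and 7.84 in controls and 7.91, 7.58, 7.86 and 7.87 with hydrogen water. The third, 1380098_at, read 6.73, 6.56, 6.48 and 6.44 in controls and 6.75, 6.83, 6.18 and 6.58 with hydrogen water. All 3 were steady between control arrays, each within 0.29 log2 units. Differences were −0.12 ± 0.09 for 1390199_at, −0.09 ± 0.11 for 1389456_at and 0.04 ± 0.15 for 1380098_at (SE), each with overlapping groups. The sign of the last turned under 3 of 5 other scalings. The probe set below the filter, 1369168_a_at, read 2.31, 4.44, 3.27 and 4.08 in controls and 4.43, 2.26, 3.32 and 3.57 with hydrogen water, and the groups overlapped.

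Npas2 encodes a second partner of BMAL1. Its log2 signal was 6.46, 6.62, 7.06 and 6.49 in controls and 6.04, 6.03, 6.90 and 6.69 with hydrogen water. Hydrogen water arrays 1 and 2 lay below all controls and arrays 3 and 4 lay above 3 of the 4 controls. The difference was −0.24 ± 0.22 (SE), and it was −0.096 with brightness and 0.16 with the Gapdh ratio as a covariate. It was −0.11 without control array 3 and −0.40 without hydrogen water array 3.

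On the repressor side, Cry1 and Cry2 encode the cryptochromes that block CLOCK and BMAL1. Cry1 read 8.16, 7.92, 7.63 and 7.00 in controls and 7.11, 6.77, 7.49 and 7.40 with hydrogen water. All 4 hydrogen water arrays lay below controls 1 to 3, and control array 4 fell inside their range. The difference was −0.49 ± 0.24 (SE), and it was −0.37 ± 0.34 with brightness and −0.14 ± 0.31 with the Gapdh ratio as a covariate. It was −0.32 without control array 1 and −0.72 without control array 4.

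Cry2 was read by 2 probe sets, and the difference between them was not tested. The brighter, 1372548_at, gave 6.85, 6.29, 6.75 and 5.85 in controls and 5.45, 5.47, 6.22 and 6.04 with hydrogen water, a difference of −0.64 ± 0.25 (SE). The dimmer, 1369446_at, gave 5.57, 5.47, 5.40 and 4.37 in controls and 5.07, 4.67, 5.14 and 5.38 with hydrogen water, a difference of −0.13 ± 0.27 (SE). In both, control array 4 lay among the hydrogen water arrays or below them. With brightness as a covariate the brighter stood at −0.25 ± 0.30 and the dimmer at 0.069 ± 0.38, and with the Gapdh ratio at −0.033 ± 0.25 and 0.16 ± 0.38 (SE). Set against Cry1, the brighter Cry2 probe set differed by less than the spread of the arrays, in that the log2 difference of the pair, set to 0 at the control mean, was 0.15 ± 0.18 with hydrogen water, with a control SD of 0.32 (SD, n = 4 each).

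Per2 encodes the period protein that carries the cryptochromes into the nucleus, and it responds to feeding and glucocorticoids as well as to the loop. The probe set above the filter read 6.67, 6.39, 7.87 and 5.50 in controls and 5.43, 5.62, 6.32 and 6.21 with hydrogen water. The controls alone spanned 2.38 log2 units, with array 3 at the top and array 4 at the bottom, and 3 of the 4 controls stood above all hydrogen water arrays. The difference was −0.71 ± 0.41 (SE). It was −0.0031 ± 0.48 with brightness and 0.11 ± 0.48 with the Gapdh ratio as a covariate. Without control array 3 it was −0.29, and without control array 4 it was −1.09. A second probe set, 1378560_at, below the filter, gave 3.96, 3.14, 3.22 and 2.27 in controls and 3.85, 2.06, 1.97 and 2.44 with hydrogen water.

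**Figure D2:**
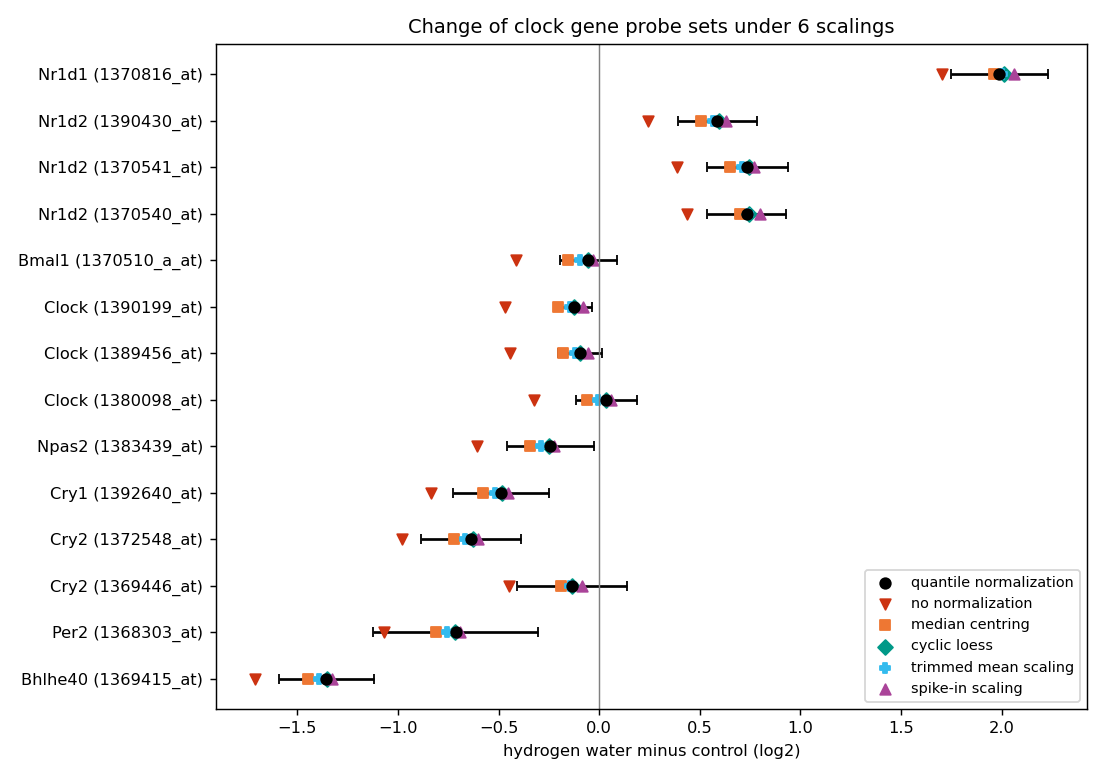
Points give the change of each tested probe set, hydrogen water minus control on the log2 scale, under 6 ways of scaling the arrays, and bars the SE of the quantile-normalized fit. Of 14 probe sets, 13 kept 1 direction under all 6, and the unscaled values lie to the left of the others throughout.

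Without normalization the median change of all tested probe sets was −0.33, and unscaled differences of the clock genes are to be read relative to it. The brightness of the arrays and the Gapdh ratio differed in mean between the groups, and as covariates they left Nr1d1 at 2.14 ± 0.33 and 2.01 ± 0.35 (SE) and Bhlhe40 at −1.48 ± 0.33 and −1.31 ± 0.35. The differences of Cry1, Cry2, Per2 and Npas2 were nearer to 0 or of the other sign in both fits, as given with each gene. The brightest Nr1d2 probe set stood at 0.56 ± 0.28 with brightness and 0.32 ± 0.26 with the Gapdh ratio. In the same order, its probe set 1370541_at stood at 0.82 ± 0.28 and 0.64 ± 0.29, and 1370540_at at 0.76 ± 0.28 and 0.61 ± 0.28. Bmal1 stood at −0.28 ± 0.17 and −0.075 ± 0.21. In the fit with brightness 0 of the 14 clock probe sets passed and 12 of all 15521 did.

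Arrays of a group differed more at most clock probe sets than at the typical probe set. At 11 of the 14 tested probe sets the SD among controls was larger than the median over all tested probe sets, 0.20, and likewise at 11 with hydrogen water, where that median was also 0.20. Per2 had a control SD of 0.98, larger than in 99.5% of all tested probe sets, and a hydrogen water SD of 0.44 (88.5%). The dimmer Cry2 probe set (control SD 0.56), Cry1 (0.50), Bhlhe40 (0.49), the brighter Cry2 probe set (0.46) and Nr1d1 (0.44) lay between 91.8% and 96.6%. Clock was at the other end in controls, with a control SD of 0.10 at 1390199_at (13.8%) of 0.12 at 1389456_at (23.0%) and of 0.13 at 1380098_at (25.4%). With hydrogen water these SDs were 0.066, 0.15 and 0.29 (70.4%), so that the third of the Clock probe sets exceeded the typical spread there.

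**Figure D3:**
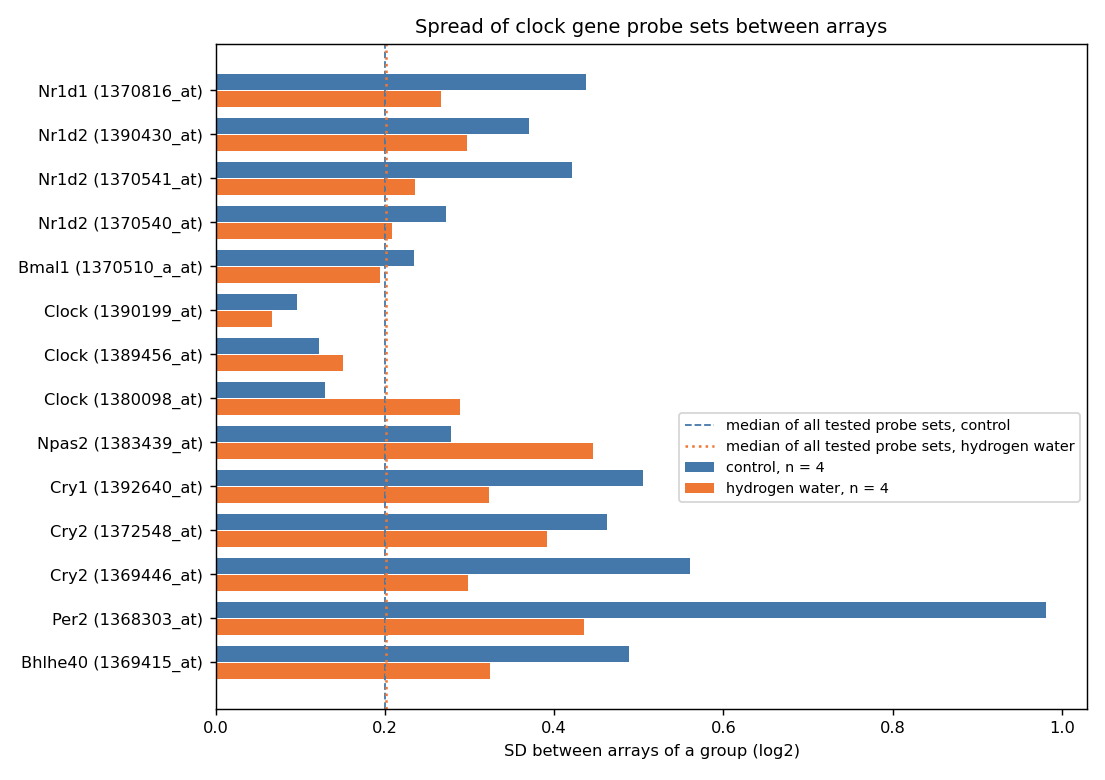
Bars give the SD of the log2 signal between the 4 arrays of each group, control in blue and hydrogen water in orange, and the vertical lines the median SD over all tested probe sets. Per2 has the longest bar, 0.98 in controls, and the probe sets of Clock have the 3 shortest control bars.

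Some control arrays stood at the same end for several genes. Control array 4 was the lowest control at all 5 tested probe sets of Cry1, Cry2, Per2 and Bhlhe40, and it was the highest control at Nr1d1. At each of these probe sets but the dimmer one of Cry2, that array was the control nearest to the hydrogen water mean. Control array 1 was the highest control at 7 of the 14 probe sets, among them the 3 of Nr1d2, Cry1 and both of Cry2. Without control array 4 the differences were larger, 2.19 at Nr1d1 and −1.59 at Bhlhe40. Leaving out the control nearest to the hydrogen water mean enlarges a difference by itself, so nothing is read from this.

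The genes nearest to Nr1d1 and Bhlhe40 in pattern were sought over the 8 arrays, by the mean absolute difference between profiles expressed as log2 relative to the control mean. Retreg1, an endoplasmic reticulum protein that acts in autophagy, was nearest to Nr1d1 at 0.39, followed by the trypsin inhibitor Spink1 at 0.48 and Edem1, which acts in degradation of misfolded glycoproteins, at 0.49. Nearest to Bhlhe40 were Bcl2a1 at 0.31, a survival factor of the BCL2 family, Lmo7 at 0.31 and choline kinase Chka at 0.32. These 6 genes differed by 1.52 ± 0.18, 1.20 ± 0.23, 1.96 ± 0.27, −1.28 ± 0.25, −1.10 ± 0.24 and −1.06 ± 0.20 (SE) in that order. The difference of Lmo7 did not pass the threshold, and none of the 6 is on the lists of clock genes used here. The 6 were picked for their likeness in this contrast, so their differences are a description.

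Other genes of the clock were followed through a list of 31, of which 26 had a probe set with a single symbol, 57 probe sets in all. The other 5 were not analysed here. Of the 57 probe sets 41 passed the filter, for 21 genes, and 0 of the 41 passed an adjusted p of 0.05 in limma, against 0.818% of all tested. At an unadjusted p under 0.05 there was 1, Usp2, against 1943 of all 15521 tested probe sets. The groups did not overlap at 0 of the 41, against 7.48% of all tested. The median difference was 0.05 on the log2 scale, against −0.00074 over all tested.

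Of the other genes of the loop, 2 were tested and neither passed. Per1, which like Per2 encodes a period protein, read 6.07, 6.16, 6.78 and 5.39 in controls and 6.41, 6.34, 6.66 and 5.40 with hydrogen water, a difference of 0.10 ± 0.31 (SE; adjusted p = 0.942 in limma). The nuclear receptor Rora, which activates through the ROREs that REV-ERB proteins occupy, differed by 0.08 ± 0.15 (adjusted p = 0.897 in limma). The probe sets of Per3, Rorb, Bmal2 and Timeless, and a second one of Rora, were below the filter.

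Enzymes that modify clock proteins were tested through 15 probe sets of 7 genes, and 0 passed. Usp2, a clock-controlled ubiquitin protease, read 8.10, 7.90, 8.64 and 7.48 in controls and 8.84, 8.68, 9.18 and 8.35 with hydrogen water. Its groups overlapped only at control array 3, and the difference was 0.73 ± 0.23 (SE; adjusted p = 0.205 in limma), with 0.62 ± 0.31 at its second probe set. Casein kinase Csnk1d, which marks PER proteins for turnover, differed by 0.08 to 0.24 over 5 probe sets, all in the same direction, and its smallest adjusted p was 0.625 in limma.

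The corepressors through which REV-ERB proteins act gave 11 tested probe sets of 4 genes, and 0 passed. Tbl1x differed by 0.25 ± 0.13 (SE; adjusted p = 0.506 in limma) at one probe set and by −0.24 ± 0.22 and 0.05 ± 0.16 at the other two. Ncor1, the scaffold of the complex, differed by −0.12 ± 0.12 at the brightest of its 3 probe sets, by −0.24 ± 0.14 (SE; adjusted p = 0.535 in limma) at the next and by −0.05 ± 0.17 at the dimmest, and the histone deacetylase Hdac3 by 0.06 ± 0.10.

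Genes driven by the clock gave 13 tested probe sets of 8 genes, and again 0 passed. Cdkn1a, a cell cycle inhibitor that REV-ERB alpha represses and that also answers to stress, differed by 1.01 ± 0.57 (SE; adjusted p = 0.529 in limma) at the dimmer of its 2 probe sets, with a control array 1 at 4.14 and the other controls at 6.22 to 7.42. Its brighter probe set differed by 0.52 ± 0.46 (SE; adjusted p = 0.733 in limma). Tef, a D-box activator, differed by −0.29 ± 0.19 (SE; adjusted p = 0.604 in limma) at one tested probe set and by −0.15 ± 0.19 at the other. Its relatives Dbp and Hlf differed by −0.27 ± 0.19 and 0.22 ± 0.16 at their brightest or only tested probe set. Nfil3, the D-box repressor whose gene REV-ERB alpha represses, differed by −0.11 ± 0.15 (SE).

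**Figure D4:**
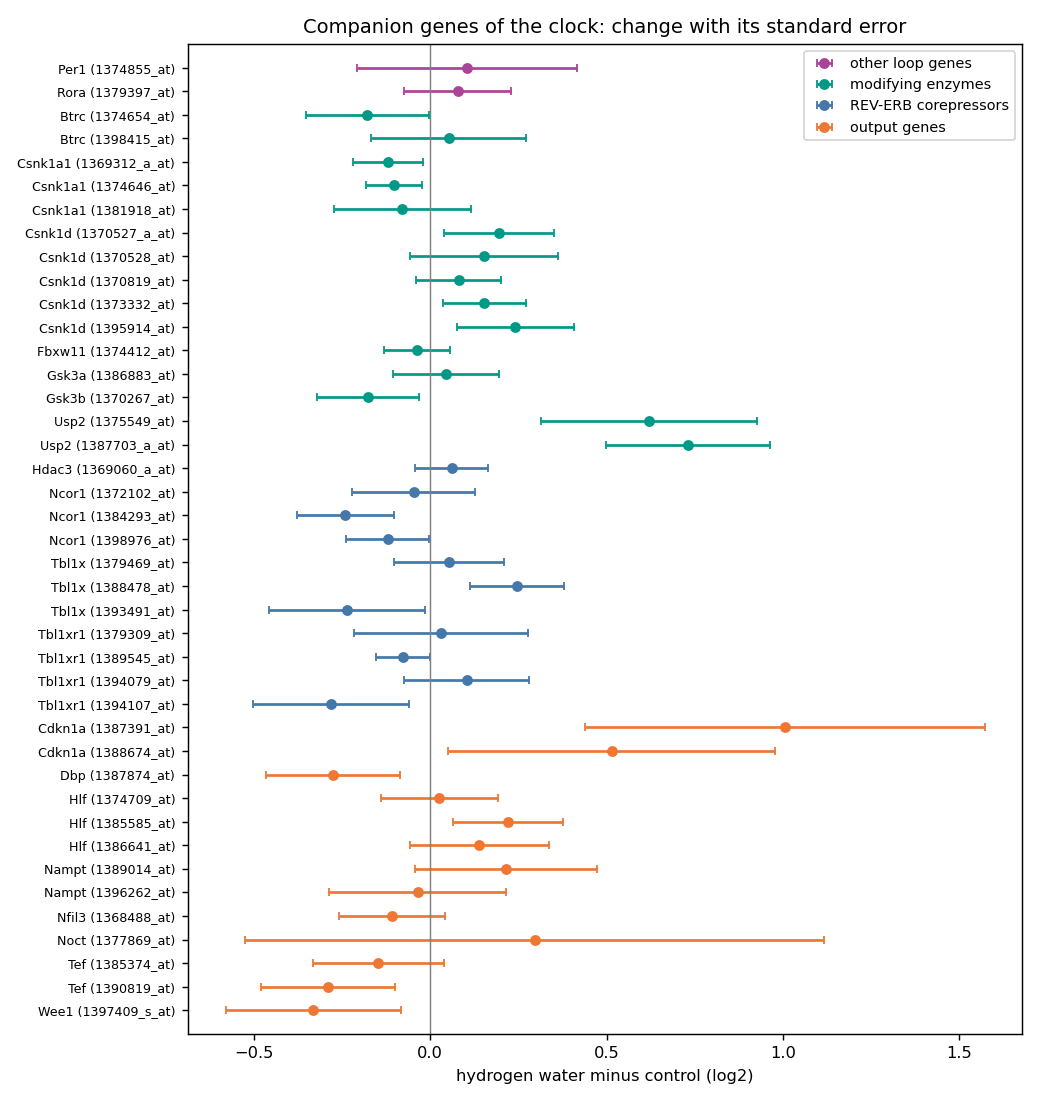
Points give the change of each tested companion probe set, hydrogen water minus control on the log2 scale, with its SE, coloured by list. Usp2 and Cdkn1a lie farthest to the right, at up to 0.73 and 1.01, and 0 of the 41 passed the threshold.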

How the data were processed

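Total RNA was labelled with biotin by the Affymetrix protocol, per the labels' protocols. The 8 deposited columns hold linear intensity values that the authors made with MAS5, per the submitters' processing notes; its version and scaling target are not stated there, and no detection calls were used here. The values had no common scale, so they were quantile-normalized, 2.05 was added and log2 taken, and the log2 values stand in place of those deposited. The 57 control probe sets were left out and the 15521 of 31042 others with a mean at or above the median were tested.

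Symbols came from the platform annotation (20826 probe sets with a single symbol, 20758 matched by Entrez ID to RefSeq of GRCr8, 0 changed). Groups were compared with lmFit and eBayes (trend) of limma 3.58.1 in R 4.3.3, with Benjamini-Hochberg adjustment over all tested probe sets at 0.05. The code was tried on simulated data with independent noise at each probe set. That simulation held no differences in brightness or RNA quality between arrays, so it does not cover them. Array measures were compared by exact permutation over 70 arrangements. Protein sequences were not used here.

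The members, lists and settings were chosen with earlier results of these data known. All clock probe sets are given; of each companion list, members past the threshold, otherwise the 2 genes with the smallest p, and Dbp, Hlf, Nfil3 and Hdac3 were added after their values were seen. Alternatives were 5 scalings, 2 pseudocounts, 2 filters, no trend, weights for arrays, a block for the replicate number and leaving out each array; covariates for brightness and the Gapdh ratio were added after seeing the data.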

Additional observations from a re-analysis of the deposited data

Results flagged for a closer look

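In 34 groups of 4 arrays, over the 17 clock probe sets, a single array stood apart by Dixon's criterion in 3; chance alone gives about 1 in 20. Bmal1 read 6.86 in control array 1 against 7.30 to 7.36 in the other controls. The Clock probe set 1389456_at read 7.58 in hydrogen water array 2 against 7.86 to 7.91 in the rest of its group. The dimmer Cry2 probe set read 4.37 in control array 4 against 5.40 to 5.57 in the other controls.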

How the results depend on the processing

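The count of clock probe sets past the threshold was 2 in the quantile-normalized arrays and in 10 of 14 other settings. It was 1 with a filter that leaves out the lower 75% of probe sets, which removes Nr1d1, 1 without a trend in the prior, 1 with the Gapdh ratio as a covariate and 0 with brightness as a covariate, and it ran from 1 to 2 when an array was left out. Nr1d1 passed in all 8 of those fits and Bhlhe40 in 2. Of all probe sets, 127 passed, but 505 without normalization, 64 without a trend, 12 with brightness and 239 with the Gapdh ratio, and 55 to 197 when an array was left out: 61 without control array 2, 197 without 3 and 58 without 4, and 61 without hydrogen water array 1, 55 without 3 and 68 without 4. The share of calls that were higher was 54.3%, but 4.16% without normalization, 29.4% with median centring and 70.8% with spike-in scaling. Signs turned at Clock 1380098_at, to −0.32 without normalization, −0.062 with median centring, −0.0054 with trimmed mean scaling and −0.15 with the Gapdh ratio, and it ran from −0.046 to 0.17 when an array was left out. Bmal1 ran from −0.17 to 0.0009 in those fits. With the Gapdh ratio Npas2 stood at 0.16, Per2 at 0.11 and the dimmer Cry2 probe set at 0.16, which was at 0.069 with brightness. The cause of these changes was not tested. With the replicate number as a block, 178 probe sets passed, 2 of them clock probe sets and 1 a companion, Usp2. Over all tested probe sets, correlations between the deviations of same-numbered arrays ran from −0.10 to 0.19. These correlations cannot exclude a pairing that acts on few genes, so whether the numbers pair the arrays is not known. Low signal limits Nr1d1 in controls, Bhlhe41 and 1 probe set each of Clock and Per2, and whether these signals exceed background is not known.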

Other observations

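A second probe set of Rora, 1380478_at, lay below the signal filter and was singled out after its values were seen. Its log2 signal was 1.41, 1.75, 1.86 and 1.79 in controls and 3.91, 3.04, 3.57 and 3.25 with hydrogen water, without overlap. On all 8 arrays its signal was under the median, and without a filter the probe set did not pass an adjusted p of 0.05 in limma, while the brighter probe set of the same gene differed by 0.08 ± 0.15 (SE).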
